A study of Mus musculus with 8 samples.

Results

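Endothelial cells line the blood and lymph vessels of a tumor, and fibroblasts build and remodel the collagen-rich matrix around them. Endothelial cells are joined by vascular endothelial cadherin, carry the receptors for vascular growth factors and, in the lung, form a dense bed of capillaries. Fibroblasts secrete fibrillar collagens and the small proteoglycans that coat them, and are a source of complement proteins, cytokines and growth factors. Among the 3894 cell barcodes with at least 200 detected genes in the 8 deposited libraries, 65 were taken as endothelial-like cells and 35 as fibroblast-like cells. An endothelial-like cell had at least 2 UMIs over Cdh5, Pecam1, Tie1, Egfl7, Flt1, Plvap and Ptprb, from at least 2 of these 7 genes, and more of them than of the fibroblast genes. A fibroblast-like cell had at least 3 UMIs over Col1a1, Col1a2, Col3a1, Dcn, Mgp and Col5a2, from at least 2 of these 6 genes, and more of them than of the endothelial genes. Either kind could hold at most 1 UMI each of the neutrophil genes Csf3r and Cxcr2 summed, of C1qa, C1qb and C1qc summed, and of Epcam, Krt8 and Krt18 summed.

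The libraries were made by Seq-Well, in which single cells sit in microwells with barcoded beads and each captured mRNA carries a unique molecular identifier (UMI), from 2 lung tumors of KP mice, 1 mouse per tumor. The KP mice, a genetic model of lung adenocarcinoma that carries p53 fl/fl alleles, were high-degree chimeras made from C57BL/6 embryonic stem cells in albino C57BL/6 blastocysts, 1 male and 1 female. The tumors were started at 12 weeks of age with an intratracheal adenovirus in which the surfactant protein C promoter drives Cre, so that alveolar type II cells and not vessels or fibroblasts were its target, and were taken 16 weeks later. For each tumor, 1 library holds live calcein-labelled cells that were photoactivated at the Healthy/Tumor Border and sorted, and 3 libraries are technical arrays of the Whole Tumor, made from cells that were not photoactivated. Mouse, sex and tumor cannot be told apart, and the arrays measure handling and sampling, not differences between mice. The libraries held between 374369 and 2019162 UMIs in barcodes with at least 200 genes, and as the cell names inside the tables number the tumors the other way round, the sample labels were followed, and taking the cell names instead would turn every direction between the tumors.

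The members were chosen by the UMIs of 7 and 6 genes, so the levels of these genes are a description. A second list for each type, without the rule's genes, shows how far the names hold. The other endothelial genes, such as Vwf, Cd93, Kdr, Tek, Emcn and Esam, reached a median of 23 UMIs in an endothelial-like cell, but 15 of the 65 cells held fewer than 4 of them and 9 held none. The other fibroblast genes, such as Bgn, Fbn1, Lox, Mmp2 and Pdgfra, reached a median of 33 UMIs in a fibroblast-like cell, and 4 of the 35 cells held fewer than 4. Among endothelial-like cells, those just inside the threshold were the ones least often backed by the second list. Of the 54 barcodes with exactly 2 UMIs of the endothelial genes, 19 were members, and 20.4% of the 54 held at least 4 UMIs of the second list, against 6.95% of the 187 barcodes with 1 UMI and 85.1% of the 47 with 5 or more. Of the 4 barcodes with exactly 3 UMIs of the fibroblast genes, 3 were members and 75.0% of the 4 held at least 4 UMIs of the second list, against 18.8% of the 16 with 2 UMIs and 92.9% of the 28 with 5 or more.

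A stricter set was therefore carried beside the members, and its limits were set after the data were seen. It keeps the cells backed by at least 4 UMIs of their second list, with fewer than 10 UMIs of pan-leukocyte and B cell genes and more than 1.05 UMIs per detected gene. This left 46 endothelial-like and 29 fibroblast-like cells. The 19 endothelial-like cells that were not backed had a median of 864 UMIs, against 1734.5 in the backed ones, and in 12 of the 19 repeat-derived satellite transcripts took at least 1% of the UMIs, against 1 of the 46. In the Border library of Tumor 2, 1 endothelial-like cell held 2305 UMIs of B cell genes. In array 3 of the Whole Tumor of Tumor 2, 1 held 86 UMIs of pan-leukocyte genes and another 99 UMIs of macrophage genes, and none of these 3 cells was backed. Over all endothelial-like cells, 8 of 65 held any B cell gene and 11 any epithelial gene, and over the fibroblast-like cells these were 4 and 1 of 35. A set of 10 barcode sequences was found in more than 1 library. They gave 6 of the endothelial-like and 2 of the fibroblast-like cells, and none of these 8 was backed. Scrublet, which scores barcodes as likely doublets, marked 57 of the 3894 barcodes and 1 of the 100 members.

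**Figure D1:**
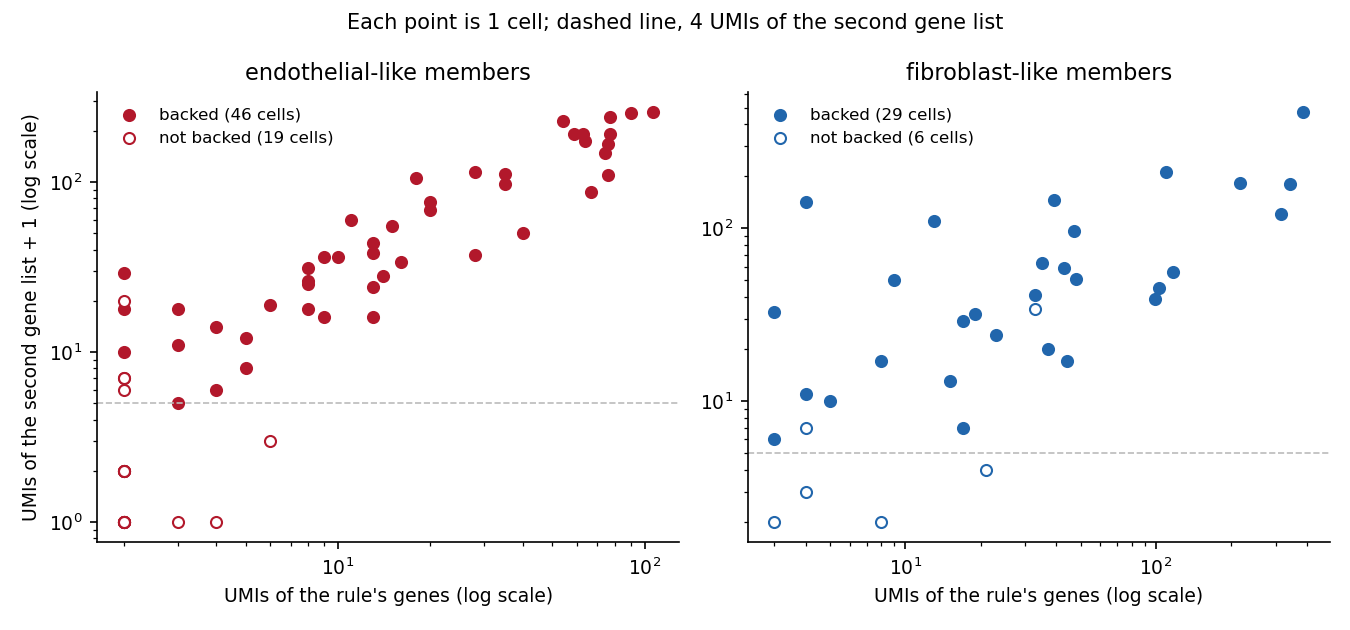
UMIs of the rule's genes (horizontal, log scale) against UMIs of the second gene list plus 1 (vertical, log scale) in each of the 65 endothelial-like cells (left) and the 35 fibroblast-like cells (right); filled points are the 46 and 29 backed cells, open points the 19 and 6 others. Endothelial-like cells with few UMIs of the rule's genes mostly lie below the dashed line at 4 UMIs of the second list and those with many above it, while 4 of the 35 fibroblast-like cells lie below it.

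Both cell types took a larger share of the barcodes in the Whole Tumor arrays of Tumor 2 than in those of Tumor 1. Endothelial-like cells were 1.34%, 0.697% and 1.39% of the barcodes in the 3 arrays of Tumor 1, and 3.05%, 2.99% and 3.25% in those of Tumor 2. The means were 1.14% ± 0.384 and 3.09% ± 0.135 (SD, n = 3 arrays), a difference of 1.96 percentage points and 2.72-fold, and every array of Tumor 2 lay above every array of Tumor 1. Fibroblast-like cells were 0%, 1.05% and 0.693% in Tumor 1, where the 0 of 449 barcodes in array 1 allows up to 0.668% (3 counts of the total), and 1.52%, 1.09% and 1.79% in Tumor 2. Their means were 0.579% ± 0.532 and 1.47% ± 0.353, which is 0.886 points and 2.53-fold apart, and again the arrays did not overlap. A two-sided exact permutation test gave p = 0.1 for each type (0.1 after Benjamini-Hochberg adjustment over both), which is the smallest value that 3 arrays against 3 can give, so neither passes 0.05. In the backed cells the shares were 0.779% ± 0.223 against 2.47% ± 0.590 for endothelial-like and 0.425% ± 0.549 against 1.26% ± 0.190 for fibroblast-like cells. The median depth of all barcodes lay between 1654 and 2525.5 UMIs in the arrays of Tumor 1 and between 675.5 and 2189 in those of Tumor 2, and with every barcode thinned to 500 UMIs, which leaves out 238 shallower barcodes in each tumor's arrays, the differences were 1.60 and 0.666 points (exact permutation p = 0.1 and 0.2).

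At the Healthy/Tumor Border, which has a single library per tumor, the cells were few. In Tumor 1, 3 of 620 barcodes were endothelial-like (0.484%, exact binomial 95% interval 0.0999% to 1.41%), none of them backed, and 0 of 620 were fibroblast-like, which allows up to 0.484% by the limit of 3 counts. In Tumor 2, 5 of 506 were endothelial-like (0.988%, 0.322% to 2.29%), 2 of them backed, and 6 of 506 were fibroblast-like (1.19%, 0.436% to 2.56%), 5 of them backed. The endothelial-like share of the Border library of Tumor 2 lay below all 3 Whole Tumor arrays of that tumor, while its fibroblast-like share lay within their range; in backed cells, at 0.988%, it lay below all 3. No test was made, since each Border is 1 library, and the sort on calcein labels cannot be told apart from the place in the tumor. These intervals and limits cover counting error only.

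**Figure D2:**
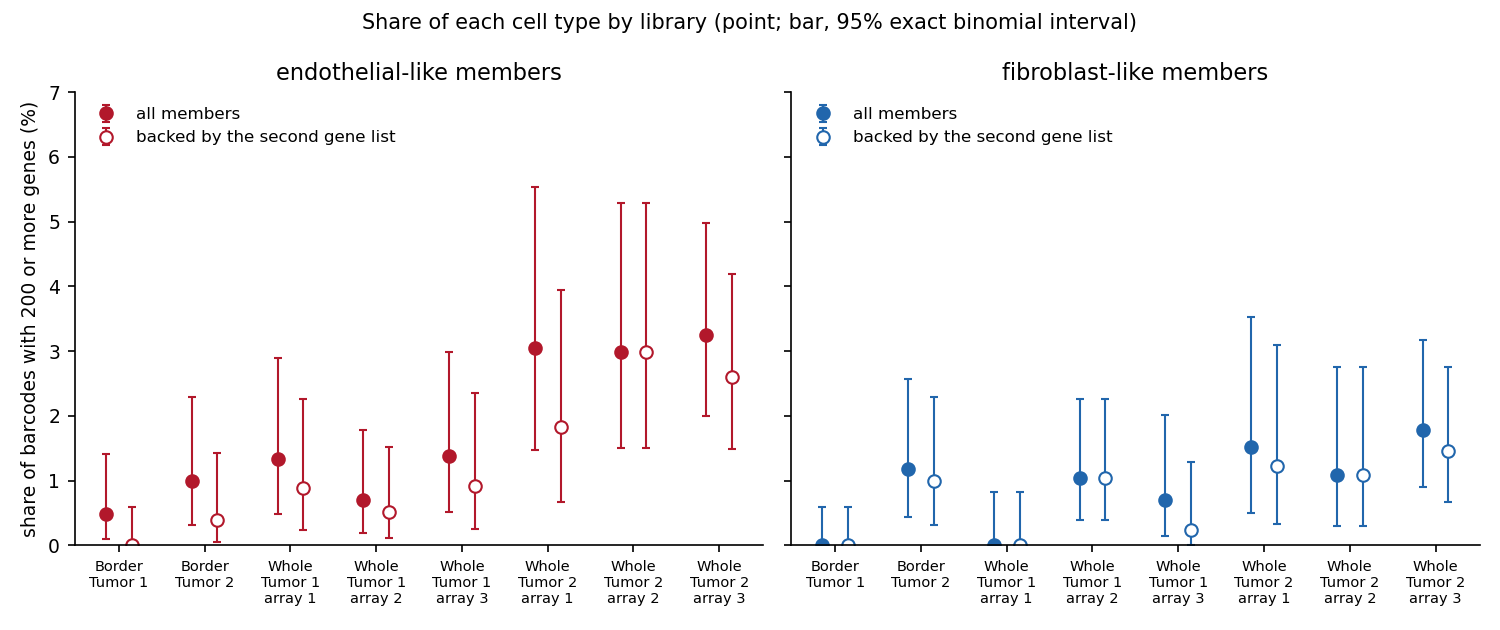
Share of barcodes with at least 200 genes (vertical, %) that were endothelial-like (left) or fibroblast-like (right) in each of the 8 libraries; filled points are all members, open points the backed members, and bars are exact binomial 95% intervals. The endothelial-like shares of the 3 Whole Tumor arrays of Tumor 2 sit between 2.99% and 3.25%, above the 0.697% to 1.39% of Tumor 1.

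Set against each other, the 2 cell types separated by whole families of genes. UMIs were summed over the cells of each type (208147 in endothelial-like and 131368 in fibroblast-like cells) and given as CPM, counts scaled to the same total in each type, and a gene is called higher in a type where its CPM was at least 4 times that of the other type, among the 3308 genes with at least 20 UMIs in the pair. By this rule 371 genes (11.2%) were higher in endothelial-like and 237 (7.16%) in fibroblast-like cells. Because cells were chosen by their own expression, this contrast has no test; intervals are exact Poisson ones that cover counting error, and a gene's direction is also counted over the 6 libraries that hold at least 2 cells of each type. Of 30 other endothelial genes with enough UMIs, 29 were higher in endothelial-like and 0 in fibroblast-like cells, with a median log2 ratio of 4.04, against 0.34 over all 3308 genes. Of 27 other fibroblast genes, 25 were higher in fibroblast-like and 0 in endothelial-like cells, with a median log2 ratio of -5.31.

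In endothelial-like cells Cdh5, the cadherin of endothelial junctions, stood at 1547 CPM (322 UMIs in 41 cells), at 0 UMIs in fibroblast-like cells and at 2.14 CPM in all other barcodes, at least 67.7-fold higher than in fibroblast-like cells. Over the Whole Tumor arrays this gene of the rule stood at 1640.4, 1725 and 2340.4 CPM in Tumor 1 and 1540.5, 2013 and 1327 CPM in Tumor 2, but no Cdh5 UMI was found in the endothelial-like cells of either Border library. Vwf, the clotting factor stored by endothelial cells and no part of the rule, stood at 1479.7 CPM against 0 UMIs in fibroblast-like cells, at least 64.8-fold higher, and was found in 25 of 65 cells. Its level was 1333, 1140.0 and 1010.1 CPM in the arrays of Tumor 1 and 2498, 1858 and 1954 CPM in those of Tumor 2. Tek, the receptor for angiopoietins, had 74 UMIs in 21 cells and none in fibroblast-like cells, at least 15.6-fold higher.

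Among genes outside the rule and with a UMI in at least 3 libraries, the 15 largest ratios in favour of endothelial-like cells were those of Vwf and of the genes that follow. Gpr116, an adhesion receptor of lung endothelium and epithelium, stood at 1571 against 7.61 CPM (ratio 206, 95% interval 36.8 to 8176), and Cd93, a receptor of endothelial and myeloid cells, at 2369 against 15.2 CPM (ratio 156, 42.8 to 1288). Calcrl, which makes the adrenomedullin receptor, stood at 692 against 7.61 CPM, and Cd36, a fatty acid and thrombospondin receptor of capillaries, at 793 against 7.61 CPM. Selp, the adhesion molecule that endothelial cells store with Vwf, stood at 1316 CPM against 0 UMIs in fibroblast-like cells, at least 57.6-fold higher, and Inhbb, a subunit of activin B, at 1379 CPM against 0 UMIs, at least 60.4-fold higher. By array Inhbb stood at 2512, 555 and 3769 CPM in Tumor 1 and 1249, 1704 and 388 CPM in Tumor 2, and at 0 UMIs in both Border libraries, so its level varied within each tumor by more than 4-fold. Ctla2a, Trp53i11, Tmem252, Stab1 (a scavenger receptor of vessels) and Adcy4 (an adenylyl cyclase) had ratios between 42.3 and 134, each with 1 UMI in fibroblast-like cells. A run without the library that holds this UMI leaves 0, and the ratio is then a limit taken at 3 UMIs. The log2 ratio of Tmem252 was at least 2.65 without array 3 of Tumor 2. That of Ctla2a was at least 5.36 without array 2 of Tumor 2, and that of Trp53i11 at least 4.49 without array 2 of Tumor 1. Without the Border of Tumor 2 the log2 ratio was at least 3.48 for Stab1, 3.64 for Adcy4, 4.72 for Calcrl and 5.92 for Gpr116. Without array 2 of Tumor 2 it was at least 4.93 for Cd36. Ighm, Igkc and Mpeg1, genes of B cells and macrophages, also ranked among the 15 largest. Of their UMIs in endothelial-like cells, 98.5%, 99.6% and 73.5% came from a single cell each, and without that cell the ratios were 4.84, 0.473 and 11.4. The log2 ratio of Mpeg1 was at least 1.29 without array 3 of Tumor 2.

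Fibroblast-like cells were led by matrix genes. Col3a1, the chain of type III collagen, stood at 4301 CPM (565 UMIs in 27 of 35 cells) against 9.61 CPM in endothelial-like cells and 13.4 CPM in all other barcodes, and was higher in 6 of 6 libraries. By library it stood at 7317 and 1243 CPM in arrays 2 and 3 of Tumor 1, at 1881, 8056 and 1784 CPM in the arrays of Tumor 2 and at 5847 CPM at the Border of Tumor 2, and 37.5% of its UMIs came from 1 cell. Mgp, the matrix Gla protein that restrains calcification, was the most widely found, in 32 of 35 cells at 4811 against 48.0 CPM. With 1 library left out its log2 ratio, endothelial-like over fibroblast-like, lay between -8.89 and -6.37. By library Mgp stood at 2396 and 1598 CPM in arrays 2 and 3 of Tumor 1, at 2090, 686 and 7554 CPM in Tumor 2 and at 7486 CPM at its Border. Dcn, the collagen-coating proteoglycan decorin, had 292 UMIs in 17 of 35 cells and none in endothelial-like cells, at least 154-fold higher. Dcn stood at 486 and 888 CPM in arrays 2 and 3 of Tumor 1 and at 5852, 4542 and 3436 CPM in Tumor 2, but at 88.6 CPM at the Border of Tumor 2. Of 11 fibrillar and associated collagens with enough UMIs, 4 belong to the rule that chose the cells. The other 7 were all higher in fibroblast-like cells, at 3372 CPM in sum against 81.7 CPM.

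Outside the rule, the 15 largest ratios in favour of fibroblast-like cells were those of the genes that follow. Spp1 (osteopontin) led at 2634 against 4.80 CPM (ratio 548, 97.7 to 21715), but its 346 UMIs came from 8 cells and 55.5% of them from a single cell of the Border of Tumor 2. Gsn, which severs actin filaments, stood at 2002 against 9.61 CPM and Mmp2, a gelatinase, at 1218 against 9.61 CPM, each higher in 6 of 6 libraries. Lox, which cross-links collagen, stood at 639 against 4.80 CPM, and Pdgfra, the PDGF receptor that marks fibroblasts, at 647 against 4.80 CPM, also in 6 of 6. Inhba, a subunit of activin A, stood at 1553 against 19.2 CPM, and Fst, the secreted antagonist of activins, at 411 against 4.80 CPM. The log2 ratio of Inhba, endothelial-like over fibroblast-like, was -2.81 without array 2 of Tumor 1. With 1 library left out the log2 ratio lay between -7.16 and -5.44 for Lox and between -6.46 and -4.80 for Fst. The complement factor C7 reached 1378 CPM with 0 UMIs in endothelial-like cells, though from 5 cells, and Serping1, the inhibitor of C1, 1066 against 9.61 CPM. Gpx3, Spon1, Sfrp1, Dpt, Ogn and Gfpt2 completed the 15, with ratios between 82.4 and 168. In Gsn, Sfrp1, C7, Dpt, Serping1 and Ogn a single cell gave between 50.5% and 61.8% of the UMIs. Without array 3 of Tumor 2 the log2 ratio, endothelial-like over fibroblast-like, was -2.45 for Ogn, -4.04 for Dpt and -4.08 for Pdgfra. It was -4.17 for C7, -4.45 for Gfpt2 and -4.84 for Serping1. With 0 UMIs in endothelial-like cells the ratio is a limit taken at 3 UMIs. This holds for C7, and for Pdgfra, whose only endothelial-like UMI came from that array. It can hold for other genes with few such UMIs.

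**Figure D3:**
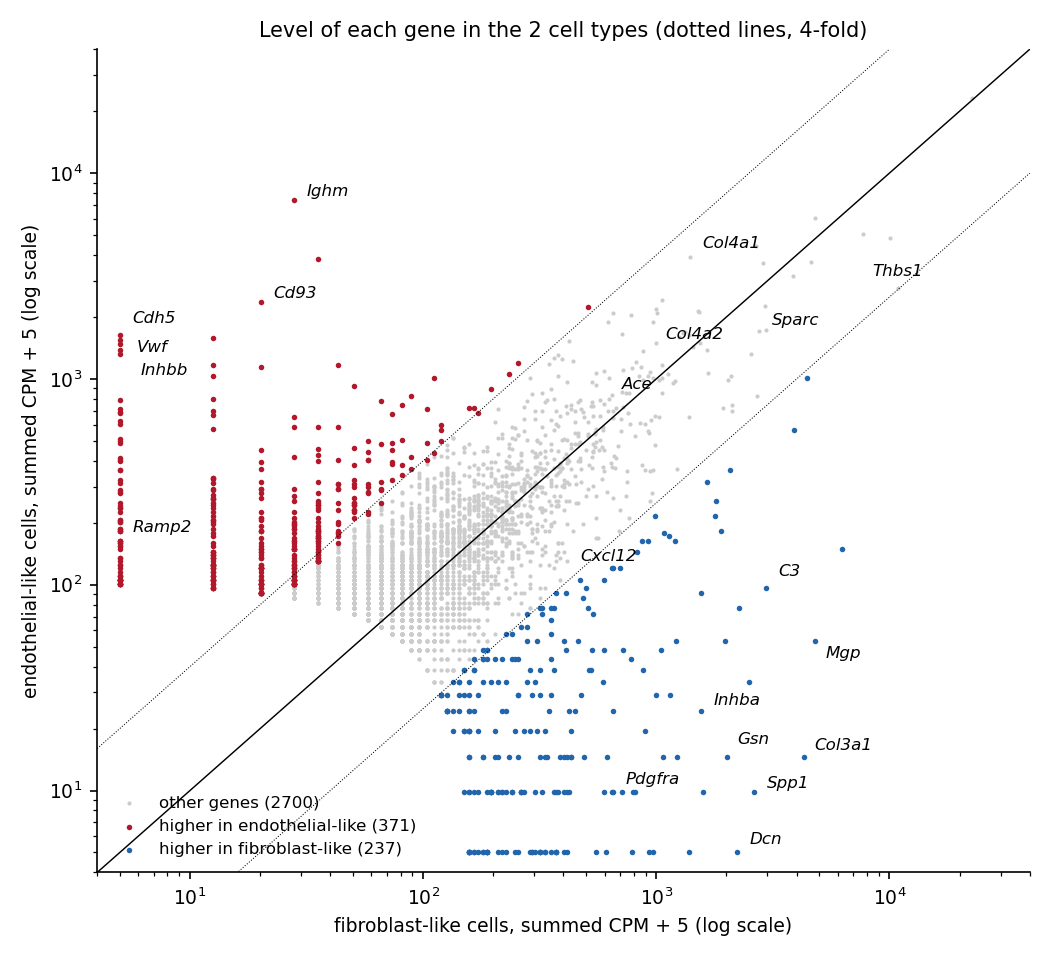
Summed CPM plus 5 of each of 3308 genes in fibroblast-like cells (horizontal, log scale) and endothelial-like cells (vertical, log scale); red points are the 371 genes at least 4 times higher in endothelial-like cells, blue points the 237 at least 4 times higher in fibroblast-like cells and grey points the others. The solid line marks equal levels and the dotted lines 4-fold; Col4a1, Col4a2, Sparc and Ace lie between the dotted lines, and Cdh5, Vwf and Inhbb stand at 0 UMIs of fibroblast-like cells.

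The promoter of 1 gene of each side is shown because the genes of each type were high together. Tek stands for the endothelial side, whose genes are known to be driven by factors of the ETS family, which bind around the letters GGAA, and Col3a1 for the fibroblast side. They are the 250 bases before the RefSeq start (GRCm38.p6), 5′ to 3′ on the gene's strand, with no annotated exon in them. The Tek window is chr4:94739039-94739288 (plus strand) and the Col3a1 window is chr1:45311288-45311537 (plus strand). Capitals mark the letters GGAA on either strand in Tek and TATAAA on either strand in Col3a1.
Tek: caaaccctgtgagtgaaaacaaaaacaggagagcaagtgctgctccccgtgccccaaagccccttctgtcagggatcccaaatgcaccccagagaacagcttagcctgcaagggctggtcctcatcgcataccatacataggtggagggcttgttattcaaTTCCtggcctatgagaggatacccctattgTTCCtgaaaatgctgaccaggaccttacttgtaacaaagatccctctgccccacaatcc
Col3a1: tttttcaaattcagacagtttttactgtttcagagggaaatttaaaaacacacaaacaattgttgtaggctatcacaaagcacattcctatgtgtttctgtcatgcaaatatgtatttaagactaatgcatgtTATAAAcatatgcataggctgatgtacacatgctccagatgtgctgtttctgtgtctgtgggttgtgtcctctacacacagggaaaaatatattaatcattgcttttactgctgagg
The Tek window held GGAA at 2 places, the nearest starting 59 bases before the start, and the Col3a1 window held TATAAA once, 117 bases before the start. Neither set of letters is rare: GGAA was in 93.4% and TATAAA in 12.4% of all 32851 promoter windows of this length. The longer form AGGAAG, which contains GGAA, was in 29.5% of all windows, in 14 of 24 windows of the other endothelial genes and in 7 of 26 windows of the other fibroblast genes. Windows were found for 19 of the 36 other endothelial and 21 of the 33 other fibroblast genes, some genes with several starts, and a match describes letters only.

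Ligands and receptors were spread over both types. Pdgfb, the ligand that recruits mural cells, had 41 UMIs in endothelial-like cells (197 CPM) and none in fibroblast-like cells, at least 8.63-fold higher and higher in 6 of 6 libraries, while its receptor Pdgfrb stood at 259 CPM in fibroblast-like against 4.80 CPM in endothelial-like cells. Kdr, the main VEGF receptor, stood at 307 against 7.61 CPM, higher in endothelial-like cells in 5 of 6 libraries, and the VEGF family member Pgf at 456 against 45.7 CPM, though in only 2 of 6. Vegfa stood at 351 CPM in endothelial-like cells, 746 CPM in fibroblast-like cells and 635 CPM in all other barcodes. Angpt1, the ligand that activates Tek, had 12 UMIs in fibroblast-like and 1 in endothelial-like cells (ratio 19.0, 2.81 to 813), and Angpt2, which competes with it, 37 UMIs in endothelial-like and 4 in fibroblast-like cells (ratio 5.84, 2.10 to 22.5). Dll4, a Notch ligand of sprouting vessels, had 25 UMIs in endothelial-like cells and none in fibroblast-like cells, at least 5.26-fold higher. Cxcl12, the chemokine ligand of Cxcr4, stood at 411 CPM in fibroblast-like and 125 CPM in endothelial-like cells against 3.43 CPM in all other barcodes, and did not reach the 4-fold of the rule.

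Basement membrane genes stood at 10065 CPM in sum in endothelial-like and 9188 CPM in fibroblast-like cells, against 565 CPM in all other barcodes. Of 14 with enough UMIs, 0 were at least 4 times higher in endothelial-like and 2 in fibroblast-like cells, a count that is near the 11.2% and 7.16% over all genes. Col4a1, the main chain of type IV collagen, stood at 3920.3 CPM in endothelial-like and 1385 CPM in fibroblast-like cells (ratio 2.83, 2.41 to 3.34), and at 19.5 CPM in all other barcodes. Col4a2, its partner chain, stood at 1878 and 959 CPM, and Lamb1, a laminin chain, at 504 and 396 CPM. Sparc, a collagen-binding glycoprotein, stood at 1696 and 2763 CPM against 45.0 CPM in all other barcodes. Fibronectin (Fn1) lay on the fibroblast side at 6249.6 against 144 CPM, with 1695 CPM in all other barcodes.

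The counts of the other lists are read against the 11.2% of all genes tested that were higher in endothelial-like and the 7.16% that were higher in fibroblast-like cells. Of 7 endothelin, adrenomedullin and apelin genes, 6 were higher in endothelial-like cells; the hormone Adm had 27 UMIs against 1, and the apelin receptor Aplnr had 23 against none, at least 4.84-fold higher. Of 13 junction genes other than Cdh5, a gene of the rule, 5 were higher in endothelial-like cells, among them the tight junction protein Cldn5 with 48 UMIs against none, and 1 in fibroblast-like cells, the cadherin Cdh11. Of 7 adventitial fibroblast genes outside the rule 5 were higher in fibroblast-like cells, while the other 2, the surface antigens Ly6a and Cd34, were higher in endothelial-like cells at 274 CPM against 0 UMIs and at 822 against 83.7 CPM. Of 17 myofibroblast and matrix-remodelling genes 13 were higher in fibroblast-like cells, with the matrix protein Postn at 472 against 24.0 CPM. Of 10 metalloproteinases and inhibitors 4 were higher in fibroblast-like cells, where Timp1 stood at 327 against 14.4 CPM, and Timp3, which stood at 845 and 605 CPM against 14.3 CPM in all other barcodes, was not among them. Of 18 TGF-beta and BMP genes 3 were higher in endothelial-like cells, the co-receptor Eng, the receptor Acvrl1 and Inhbb, and 7 in fibroblast-like cells, among them Tgfb3, Ltbp1 and Inhba. Of 21 early response and heat shock genes 4 (Fos, Fosb, Egr1 and Nr4a1) were higher in fibroblast-like cells. This pooled contrast mixes the tumors unevenly. The Whole Tumor arrays of Tumor 1 gave 92556 of the 208147 endothelial-like UMIs and 42149 of the 131368 fibroblast-like UMIs. In these arrays the list summed to 4160 CPM in endothelial-like and 15445 CPM in fibroblast-like cells. In those of Tumor 2 the sums were closer, at 44174 and 49037 CPM.

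The counts of the immune lists are read against the same 11.2% and 7.16% of all genes. All 6 complement genes with enough UMIs were higher in fibroblast-like cells, at 6607 against 135 CPM in sum, and C3 alone stood at 2946 against 91.3 CPM, with 46.3% of its UMIs in a single cell. Of 14 genes of inflammatory fibroblasts, 12 were higher in fibroblast-like cells; and of these Il6 had 52 UMIs in 7 cells and none in endothelial-like cells, and the neutrophil chemokine Cxcl1 stood at 997 against 24.0 CPM, higher in 6 of 6 libraries. Of 20 antigen presentation and interferon genes, 8 were higher in endothelial-like and 0 in fibroblast-like cells. In the same sums macrophage markers stood at 687 against 91.3 CPM, B cell markers at 11199 against 68.5 CPM and pan-leukocyte markers at 701 against 175 CPM. In backed cells these stood at 67.4 against 43.0 CPM, 6.13 against 25.8 CPM and 30.7 against 25.8 CPM. Backed cells were chosen with a limit on B cell and pan-leukocyte UMIs, so the low sums of those markers follow in part from that choice. Of the 17 antigen presentation and interferon genes with enough UMIs in backed cells, 10 were higher in endothelial-like cells. B2m, the invariant chain of MHC class I, stood at 1883 CPM in endothelial-like, 617 CPM in fibroblast-like cells and 1273 CPM in all other barcodes, and H2-K1 at 1004, 282 and 684 CPM; both were higher in endothelial-like than in fibroblast-like cells in 6 of 6 libraries, with ratios of 3.05 and 3.57. Of 10 adhesion genes by which endothelium binds leukocytes, not counting 1 gene of the rule, 8 were higher in endothelial-like cells, while Vcam1, a member of that list, was higher in fibroblast-like cells at 1134 against 168 CPM.

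**Figure D4:**
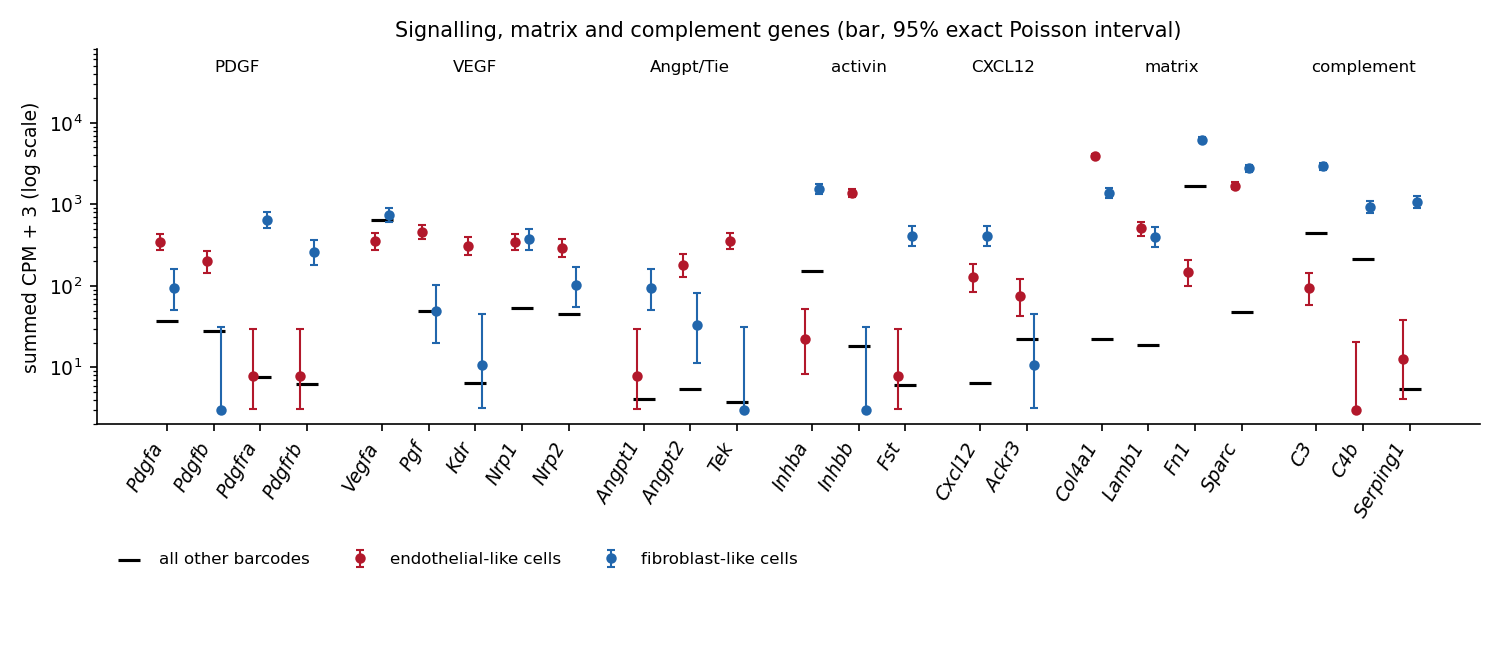
Summed CPM plus 3 (vertical, log scale) of signalling, matrix and complement genes in endothelial-like cells (red), fibroblast-like cells (blue) and all other barcodes (black dash); bars are exact Poisson 95% intervals. Pdgfb, Tek and Inhbb stand at 0 UMIs of fibroblast-like cells, C4b at 0 UMIs of endothelial-like cells, and Col4a1, Lamb1 and Sparc are high in both types against all other barcodes.

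Within each type, cells differed. Of the 46 backed endothelial-like cells, 23 held Vwf, 14 held Selp and 14 held Gpihbp1, the capillary anchor of lipoprotein lipase. Selp was found together with Vwf in 11 cells and with Gpihbp1 in 3. Of 5 general capillary genes of lung outside the rule, 4 were higher in endothelial-like and 0 in fibroblast-like cells. Of 4 aerocyte genes 3 were higher in endothelial-like and 0 in fibroblast-like cells, though the list summed to 2152 CPM in endothelial-like and 2710 CPM in fibroblast-like cells. Of 5 venous genes 3 were higher in endothelial-like and 1 (Vcam1) in fibroblast-like cells, and of 5 arterial genes 1 (Dll4) and 1 (Fbln2), beside 11.2% and 7.16% of all genes. Of the 46, 3 carried Mmrn1 and Reln, both known from lymphatic vessels, with 93, 58 and 27 UMIs of the lymphatic list; they came from array 3 of the Whole Tumor of Tumor 2, from array 1 of it and from the Border of Tumor 2. Lyve1, a hyaluronan receptor used as a lymphatic marker that lung blood capillaries also carry, was far wider, in 27 of the 46. Apln, a ligand of sprouting tip cells, had 57 of its UMIs in 1 cell of Tumor 1, and Pgf was found in 9 of the 46 backed cells, 6 of which also held Angpt2.

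Fibroblast-like cells differed among themselves as well. Of the 29 backed cells, 28 held Mgp and 23 held Col3a1, but 15 held Dcn, 9 held Pdgfra, 8 held Dpt and 4 held Inmt, the last 3 known from resident fibroblasts of the lung and its adventitia. Of the 103 UMIs of Inmt, 90 came from 1 cell. Of the 29, 10 held Inhba, 6 held Spp1, and all 6 cells with Spp1 also held Inhba, while 3 of them held Dcn. A single cell of array 3 of the Whole Tumor of Tumor 2 held 78 UMIs of the pericyte and smooth muscle list, with 30 of Acta2 and 28 of Myh11, and only 3 UMIs of the rule's genes. Another cell of that array held 46 UMIs of that list beside 110 UMIs of the rule's genes. Mesothelial genes were near 0, with 11 UMIs over all 35 cells.

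Between the tumors, the endothelial-like cells changed in a broad set of genes. UMIs were summed per Whole Tumor array and fitted by quasi-likelihood in edgeR, and p-values were adjusted by Benjamini-Hochberg over the 394 genes that passed the filter on low counts. In Tumor 2, 47 genes (11.9%) rose and 20 (5.08%) fell against Tumor 1 at an adjusted p under 0.05. With scaling by library totals alone in place of TMM, 40 rose and 39 fell, and the median log2 change of all genes moved from -0.13 to -0.43, so that the balance of directions rests on the scaling. The cells of the comparison were 6, 4 and 6 in the arrays of Tumor 1 and 10, 11 and 20 in those of Tumor 2, with median depths of 3432.5 and 1518 UMIs per cell, whose part in the calls was not tested, and the difference covers 2 tumors and not a condition. The 7 genes of the rule, of which every member had to hold at least 2, are no evidence of a stable level and stood at 6266 CPM in sum in Tumor 1 and 7752 CPM in Tumor 2. With 1 array left out both the genes tested and the calls changed: 130 of 758 genes were called without array 1, 27 of 430 without array 2 and 43 of 427 without array 3 of Tumor 1, and 63 of 756, 72 of 675 and 45 of 479 without arrays 1, 2 and 3 of Tumor 2.

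The largest rises were of Sdpr, Ace, Gadd45g, Gadd45b and Socs3. Here and below, the value after ± of a log2 change is a standard error derived from the edgeR test statistic, not an SD between arrays. Sdpr, a coat protein of caveolae, had no UMI in the 3 arrays of Tumor 1 and 14, 6 and 30 UMIs in those of Tumor 2, at least 15.8-fold higher (edgeR adjusted p = 0.0013). Ace, the angiotensin-converting enzyme of lung capillaries, stood at 0, 61.6 and 49.3 CPM in Tumor 1 and at 1624, 4491 and 1387 CPM in Tumor 2, a log2 change of 5.89 ± 0.83. It was found in 2 of 16 cells of Tumor 1 and 26 of 41 cells of Tumor 2, and stood at 13.5 and 24.5 CPM in the other barcodes of the same arrays. The stress-responsive Gadd45g stood at 0, 0 and 73.9 CPM against 1915, 619 and 2148 CPM (log2 change 5.78 ± 0.89, between 4.98 and 8.61 with 1 array left out). Its relative Gadd45b stood at 51.3, 30.8 and 0 CPM against 749, 619 and 2013 CPM (5.78 ± 0.89, between 4.77 and 6.32 with 1 array left out). Socs3, the feedback inhibitor of cytokine receptors, stood at 205, 0 and 24.6 CPM against 708, 2633 and 3430.4 CPM (5.38 ± 1.01, between 4.44 and 7.18 with 1 array left out). In each of these 5 genes the arrays of the tumors did not overlap.

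Of the 18 other endothelial genes tested, 5 rose and none fell, against 11.9% and 5.08% of all genes: Ace, the water channel Aqp1 of capillaries (log2 change 3.08 ± 0.73), the hypoxia-inducible factor Epas1 (3.81 ± 0.66), the surface antigen Ly6c1 (3.69 ± 0.75) and the sialomucin Podxl (1.91 ± 0.59). The median log2 change of the 18 was 1.01, against -0.13 over all 394 genes. Ace, Epas1 and Ly6c1 were called in all 12 alternatives and Aqp1 in 10, but Podxl in 4 of 12, with an edgeR adjusted p of up to 0.63. Without array 2 of Tumor 1, 3 of 21 were called, all as rises, against 19 rises among all 430 genes of that fit. Aqp1 stood at 410.1, 30.8 and 271 CPM in the arrays of Tumor 1 and at 1166, 2168 and 1849 CPM in those of Tumor 2. The level of Aqp1 in the other barcodes of these arrays was 3.30 and 4.75 CPM. Among 5 genes of the VEGF family tested, Vegfa (2.45 ± 0.58) and its co-receptor Nrp1 (2.75 ± 0.77) rose and Pgf fell, against 11.9% and 5.08% called over all genes. The calls of Vegfa and Nrp1 were lost without array 2 or array 3 of Tumor 1 and with no filter on low counts, that of Nrp1 also without array 2 of Tumor 2, with edgeR adjusted p up to 0.36 and 0.31, and that of Pgf was kept in all 12 alternatives.

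Early response genes code for factors switched on within minutes of a stimulus, and heat shock genes for chaperones made under stress. Of 14 tested, 11 rose and none fell, with a median log2 change of 3.05, against -0.13 over all genes and a background of 11.9% called. Without array 3 of Tumor 2, 5 of the 14 were called, against 45 of all 479 genes of that fit. Without array 2 of Tumor 1, 6 of the 18 then tested were called, against 27 of all 430. Their sum in endothelial-like cells was 4160 CPM in Tumor 1 and 44174 CPM in Tumor 2, and in the other barcodes of the same arrays 21007 and 31933 CPM. In the same endothelial-like sums macrophage markers stood at 43.2 and 1323 CPM and pan-leukocyte markers at 32.4 and 1384 CPM. In the backed cells these markers stood at 11.3 and 115 CPM and at 11.3 and 57.3 CPM. The pan-leukocyte level there follows in part from the limit on such UMIs by which backed cells were chosen. The early response and heat shock sums of the backed cells were 4232 and 40986 CPM, and the part of leukocyte RNA in them was not tested. Fos, the immediate-early transcription factor, stood at 103, 30.8 and 49.3 CPM against 625, 2013 and 2536 CPM, a log2 change of 5.10 ± 0.81. In the other barcodes Fos stood at 316 CPM in Tumor 1 and at 2147 CPM in Tumor 2. Hspa1a, the inducible chaperone Hsp70, stood at 923, 154 and 468 CPM against 7328, 3562 and 13438 CPM, a log2 change of 4.23 ± 0.80. In the other barcodes Hspa1a stood at 7292 CPM in Tumor 1 and 6342 CPM in Tumor 2. Hspa1b, a near-identical copy from which reads may be exchanged, changed by 4.55 ± 0.71.

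The promoters of 3 of these genes are shown because they rose together in endothelial-like cells of Tumor 2. They are again the 250 bases before the RefSeq start (GRCm38.p6) with no annotated exon in them: Hspa1a at chr17:34972157-34972406 (minus strand), Hspa1b at chr17:34959239-34959488 (minus strand) and Fos at chr12:85473640-85473889 (plus strand). Capitals mark GAANNTTC, a core form of the heat shock element, in Hspa1a and Hspa1b, and TATAAA in Fos, on either strand.
Hspa1a: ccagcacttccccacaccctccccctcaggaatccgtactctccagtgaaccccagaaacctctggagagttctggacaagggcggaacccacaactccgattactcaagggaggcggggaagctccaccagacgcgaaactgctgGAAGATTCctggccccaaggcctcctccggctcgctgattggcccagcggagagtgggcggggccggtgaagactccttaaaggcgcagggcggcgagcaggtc
Hspa1b: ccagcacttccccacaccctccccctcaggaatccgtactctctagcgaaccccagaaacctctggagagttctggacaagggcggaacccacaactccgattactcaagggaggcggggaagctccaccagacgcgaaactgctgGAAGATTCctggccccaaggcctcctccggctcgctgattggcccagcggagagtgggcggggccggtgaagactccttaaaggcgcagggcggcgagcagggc
Fos: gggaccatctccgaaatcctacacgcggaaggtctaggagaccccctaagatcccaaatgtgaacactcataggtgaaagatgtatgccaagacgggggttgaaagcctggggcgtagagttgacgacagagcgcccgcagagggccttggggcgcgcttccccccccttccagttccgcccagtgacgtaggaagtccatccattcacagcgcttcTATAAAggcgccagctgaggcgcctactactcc
The windows of Hspa1a and Hspa1b are the same at 247 of 250 bases and hold GAANNTTC once, 104 bases before the start. GAANNTTC was in 6.69% of all 32851 windows and in 4 of the 18 windows of the early response and heat shock genes. The Fos window holds TATAAA 33 bases before the start. TATAAA was in 1 of the 18 windows of the early response and heat shock genes (5.56%), against 12.4% of all windows.

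Among the largest falls in Tumor 2 were those of Pgf, Hspa9, Tpm1 and Prss23. Pgf, the placental growth factor that binds Flt1, stood at 718, 893 and 1232 CPM in the arrays of Tumor 1 and at 41.6, 0 and 14.9 CPM in those of Tumor 2, a log2 change of -5.04 ± 0.75 (edgeR adjusted p = 0.0013). It was found in 7 of 16 cells of Tumor 1 and 2 of 41 of Tumor 2. Tpm1, an actin-binding tropomyosin, stood at 1128, 1078 and 1035 CPM against 41.6, 0 and 89.5 CPM (-3.70 ± 0.65), and in the other barcodes at 300 and 29.9 CPM. The mitochondrial chaperone Hspa9 changed by -3.85 ± 0.72 and the secreted protease Prss23 by -3.18 ± 0.83. The call of Hspa9 was lost without array 2 of Tumor 1 (edgeR adjusted p = 0.054), and that of Prss23 without array 3 of Tumor 1 (0.10) and without array 1 (0.099) or 2 (0.052) of Tumor 2. The growth factor Pdgfa (-2.85 ± 0.81), the laminin chain Lamc1 (-2.42 ± 0.61), the semaphorin receptor Plxnd1 (-2.51 ± 0.67) and the membrane metalloproteinase Mmp14 (-2.32 ± 0.64) also fell, but with less support. Of the runs that left out 1 array, Pdgfa was called in 2 of 6, Plxnd1 in 2 of 6, Lamc1 in 4 of 6 and Mmp14 in 2 of 5, with edgeR adjusted p of up to 0.18, 0.21, 0.27 and 0.36 over the alternatives. Col4a1 stood at 6212 CPM in Tumor 1 and 2358 CPM in Tumor 2, with a log2 change of -1.10 ± 0.53 that did not pass (edgeR adjusted p = 0.17). Angpt2, with 33 UMIs in Tumor 1 and 4 in Tumor 2, did not reach the filter.

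Part of these changes was also seen in the other barcodes of the same arrays, which were summed without a test. Of the 47 genes that rose, 18 were more than 2-fold higher in Tumor 2 in the other barcodes, 25 lay within 2-fold and 4 were more than 2-fold lower. Of the 20 that fell, 9 were more than 2-fold lower there, 10 lay within 2-fold and 1 was more than 2-fold higher. In the backed cells alone 60 genes rose and 36 fell, and of the 47 and 20 genes, 46 and 18 were still tested and all of these were called again. The backed cells are part of the same cells and were kept by UMIs of the second list, which holds called genes such as Ace and Aqp1. The repeat of the calls is therefore no independent check.

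**Figure D5:**
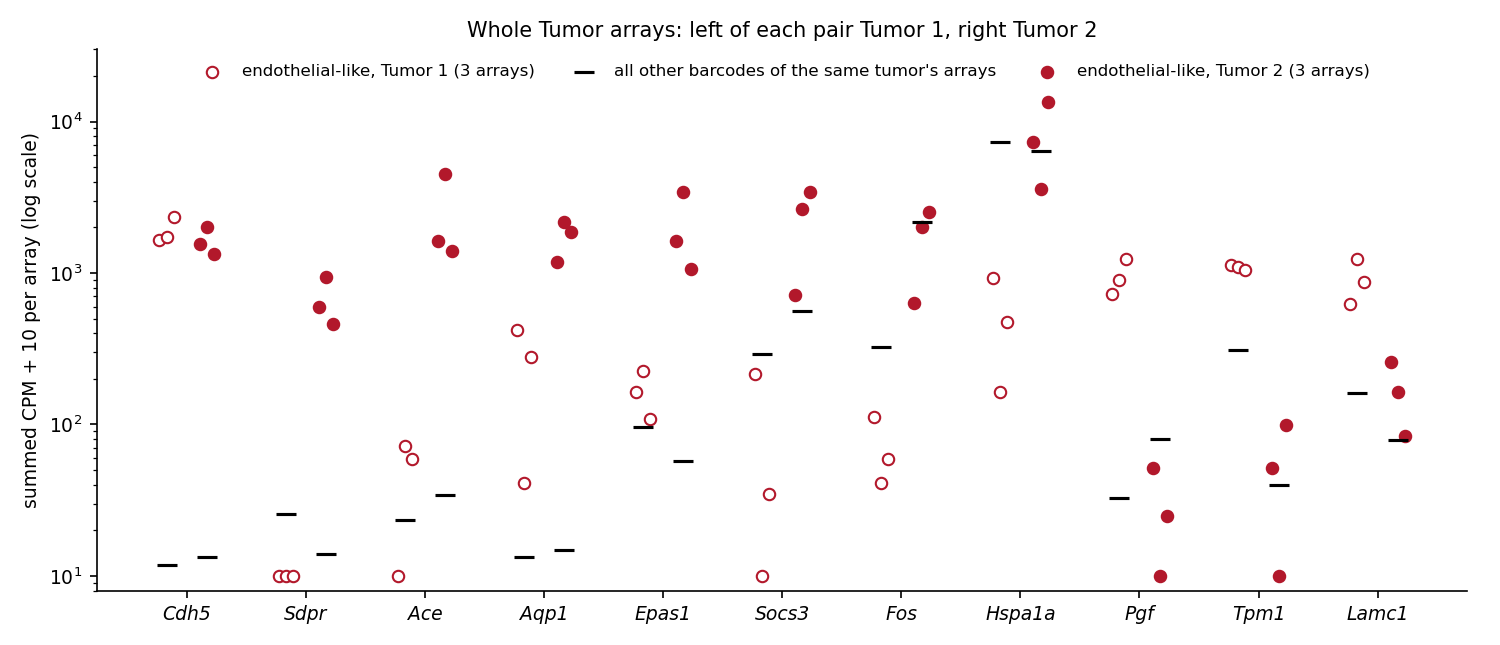
Summed CPM plus 10 (vertical, log scale) of 11 genes in the endothelial-like cells of each Whole Tumor array, Tumor 1 as open and Tumor 2 as filled points, 3 arrays each; black dashes are all other barcodes of the same tumor's arrays. Cdh5, a gene of the rule, overlaps between the tumors, Sdpr, Ace, Aqp1, Epas1, Socs3, Fos and Hspa1a are higher in all 3 arrays of Tumor 2, and Pgf, Tpm1 and Lamc1 are lower.

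For fibroblast-like cells the same fit had 5 arrays, since array 1 of Tumor 1 held none, with 9 cells in Tumor 1 and 20 in Tumor 2. Of 128 genes tested, 3 rose (2.34%) and 2 fell (1.56%) in Tumor 2. Fmo2, a flavin monooxygenase of lung, had no UMI in the 2 arrays of Tumor 1 and 21, 3 and 112 UMIs in those of Tumor 2, at least 28.7-fold higher (edgeR adjusted p = 0.0087). The complement gene C4b had none against 16, 3 and 99 UMIs, at least 24.9-fold higher (adjusted p = 0.012 by edgeR). In both genes most UMIs of Tumor 2 came from a single cell, 64.7% and 66.1%. Saa3, an acute-phase protein, had 1 and 0 UMIs against 30, 46 and 0 UMIs, all from 2 cells of Tumor 2, and so overlapped between the tumors. Emp1, a membrane protein, fell by 3.72 ± 1.11 on the log2 scale, from 1619 and 888 CPM to 313, 0 and 154 CPM, and Gm26924 fell by 1.74 ± 0.49. The arrays overlapped for Gm26924, at 117565 and 263494 CPM in Tumor 1 against 52456, 125204 and 113602 CPM in Tumor 2, and its log2 change was -0.59 without array 3 of Tumor 1 and -0.61 in backed cells. None of the 5 was called with the array number as a block, in backed cells or without either array of Tumor 1; the last 3 fits leave Tumor 1 with 1 array, which is assumed to vary like the others. The log2 changes of Fmo2 and C4b in those 3 fits were as large, between 7.93 and 8.25 and between 7.69 and 8.01. Of 15 early response and heat shock genes tested in fibroblast-like cells none was called. The list summed to 15445 CPM in Tumor 1 and 49037 CPM in Tumor 2. On simulated data this fit found 6.67% of 4-fold changes, so a missing call says little about a change of such size. Whether fibroblast-like cells differ here from endothelial-like cells was not tested.

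Other values in fibroblast-like cells differed between the tumors without a call and are given as levels only. Spp1 had 152 UMIs in Tumor 1 and 1 in Tumor 2, Inhba 190 and 6, and Mmp2 112 and 27 (log2 change -2.52 ± 1.10, edgeR adjusted p = 0.18). Dcn had 25 UMIs in Tumor 1 and 265 in Tumor 2, and C3 26 and 354. The resident fibroblast genes Inmt and Col14a1 had none in Tumor 1 and 103 and 49 in Tumor 2. Col3a1, Mgp and Col1a1 had log2 changes of -0.80 ± 1.17, 0.06 ± 1.17 and 0.16 ± 1.06. At the Border of Tumor 2, the 6 fibroblast-like cells held 193 UMIs of Spp1 (8549 CPM), 176 of Fn1 (7796 CPM) and 2 of Dcn (88.6 CPM), against 15, 4607 and 3976 CPM in the Whole Tumor arrays of that tumor. These are sums over few cells of 1 library with no replicate, and most of the Spp1 came from 1 cell.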

How the data were processed

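Seq-Well libraries of 2 KP lung tumors, 1 Healthy/Tumor Border and 3 Whole Tumor arrays each, were analysed. Per the labels and the study's methods, the authors demultiplexed reads with bcl2fastq 2.17.1.14, aligned them to mm10 with STAR 2.5.2b by the Drop-seq protocol, counted each UMI once and deposited raw UMI counts of 27923 genes, named by symbol, per barcode. Depth is between 374369 and 2019162 UMIs per library in barcodes with at least 200 genes. Samples were grouped by their labels. The members and gene lists were chosen with earlier results of these data known.

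Shares were compared by two-sided exact permutation tests. UMIs of each type were summed per array and tested with edgeR 4.0.16 in R 4.3.3 (TMM, filterByExpr, quasi-likelihood test, Benjamini-Hochberg adjustment, threshold 0.05) over arrays with at least 2 cells of the type, and the fit was tested on simulated data. Of simulated 4-fold changes it found 82.75% in endothelial-like but 6.67% in fibroblast-like cells. Of 16-fold changes it found 100% and 77.7%. DESeq2 1.42.0, library totals, no filter, an array block, leaving out doublets (Scrublet as run by scanpy 1.11.5) and each library were alternatives. The genes named are those of the rule, the 15 largest ratios in each direction among genes with at least 20 UMIs and a UMI in at least 3 libraries, genes of the lists with at least 10 UMIs in a type, and the 5 largest changes in each direction between the tumors. Some items, a gene among these 5 included, are not reported here. Other genes past the threshold were named after their values were seen. Promoters are from RefSeq (GRCm38.p6).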

Additional observations from a re-analysis of the deposited data

How the results depend on the processing

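In every alternative run, both shares stayed higher in Tumor 2, by 1.25 to 2.26 percentage points for endothelial-like and 0.597 to 1.12 for fibroblast-like cells, and none passed 0.05 in the exact permutation test. The array numbers of the labels name technical arrays of different mice: same-numbered arrays had correlations of their deviations of -0.07, -0.10 and -0.10 in endothelial-like and 0.28 and 0.18 in fibroblast-like cells, so the samples share only a number. With the replicate block the shares differed by 1.96 and 0.886 points (sign-flip exact permutation p = 0.25, the smallest possible) and 61 genes were called in endothelial-like and 0 in fibroblast-like cells, 17 of the latter at an unadjusted p under 0.05. In endothelial-like cells, beside 67 calls, there were between 27 and 130 with 1 array left out: 130 without array 1, 27 without array 2 and 43 without array 3 of Tumor 1, where 41, 17 and 21 of the 47 rises and 16, 6 and 8 of the 20 falls were called again. Of the 20 falls only 15 and 12 were still tested without arrays 2 and 3 of Tumor 1, and of the 47 rises 43 without array 3 of Tumor 2. Without array 1, 2 or 3 of Tumor 2, 36, 39 and 28 of the 47 rises and 7, 7 and 5 of the 20 falls were called again. Genes tested differed between these fits, 394 in the fit reported and between 427 and 758 with 1 array left out. DESeq2 made 100, backed cells 96, library totals 79 and no filter 76, but with no filter 20 of the 47 rises and 5 of the 20 falls were called again. In fibroblast-like cells, beside 5 calls, there were 2 with library totals, 1 with no filter, 3 in backed cells, 12 with DESeq2 and between 1 and 8 with 1 array left out (8 without array 2 of Tumor 2). None of the 5 was among the calls with no filter or in backed cells. Counts of genes higher in endothelial-like and fibroblast-like cells, 371 and 237, became 141 and 98 at 50 UMIs, 222 and 95 in Tumor 1 alone and 238 and 189 in Tumor 2 alone, of 1208, 1416 and 1791 genes with enough UMIs in place of 3308; without 1 library at a time they lay between 304 and 374 and between 168 and 238. The log2 ratio of Igkc lay between -1.26, reversed, without the Border of Tumor 2 and 8.83 without array 2 of Tumor 1. The causes of these shifts were not tested. Cell numbers, 65 and 35, set the depth, and differences between mice were not measured.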
